A study of Homo sapiens with 5 samples.

Results

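The genes described here encode enzymes that write or erase marks on histones, the proteins DNA is wound around. They comprise histone lysine demethylases (KDM genes), histone lysine methyltransferases (KMT genes, EZH1, EZH2, SETDB1, SETDB2, SUV39H1, SUV39H2, EHMT1, EHMT2, SETD2, NSD1 and DOT1L) and the deacetylases HDAC1 to HDAC11 and SIRT1 to SIRT7. The rule that picks them uses the gene symbol and no measured value, although the set was proposed with earlier results of these data known, and 54 of the 27477 genes of the authors' deposited table matched. These were 17 demethylases, 19 methyltransferases, 11 HDAC genes and 7 sirtuin genes, and all 54 had an adjusted p. RNA-seq was done on PC9, a long-used line of human lung adenocarcinoma whose growth depends on a mutant, active EGFR. The 3 parental libraries came from cells with no drug named in the labels, and the 2 libraries labelled DTC came from cells given 50 nM gefitinib, an inhibitor of the EGFR kinase, for 6 days and then growth medium for 3 days. The series title calls the latter cells tolerant to gefitinib, and they are called drug-tolerant below. Both groups were 1 cell line in RPMI with serum, and the labels do not say whether libraries came from separate cultures, so every p-value measures the spread between libraries, which may be technical.

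Methyl groups on histone H3 lysine 4 (H3K4) mark promoters and enhancers of active genes, and are added by the KMT2 enzymes and removed by the KDM1 and KDM5 enzymes. Methylation of H3K9 and H3K27 accompanies silent chromatin, methylation of H3K36 and H3K79 accompanies transcribed gene bodies, and acetyl groups, which the HDAC and SIRT enzymes remove, accompany open chromatin. In PC9 and other lines, KDM5A and histone deacetylase activity are known from earlier work in connection with small cell populations that outlast a kinase inhibitor. The series therefore allows the messenger RNA of each of these enzymes to be compared between parental cells and cells after gefitinib, although RNA levels say nothing about enzyme activity or histone marks.

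The deposited table gives a mean level over the 5 libraries, a log2 fold change (positive when higher in drug-tolerant cells) with its standard error (SE), and a p-value. The whole reads of each library were recovered from these figures for all 54 genes, with exactly 1 set of 5 reads matching each gene. The libraries are called Par-a, Par-b and Par-c (parental) and Tol-a and Tol-b (drug-tolerant), since they could not be matched to replicate numbers. Values per library are reads divided by the library's size factor (from 0.789 to 1.19), called normalised reads below. Depth scaled from the size factors was about 14.2 M to 21.4 M reads, which is an estimate and not a count. The parental libraries did not form 1 group. Normalised reads summed over the 54 genes were 66819 in Par-a, 46411 in Par-b and 45647 in Par-c, against 69502 and 68694 in Tol-a and Tol-b. For 46 of the 54 genes the level in Par-a was nearer to the drug-tolerant mean than to the mean of Par-b and Par-c. Across the 54 genes Par-b and Par-c differed by a median of 0.09 on the log2 scale and Par-a and Par-b by 0.51. The pair Par-b and Par-c lay close to counting error (chi-square 1.46 per degree of freedom, p = 0.016 over the 54 genes, allowing for counting error only). So did Tol-a and Tol-b, with a median difference of 0.07 (chi-square 1.65 per degree of freedom, p = 0.0018, same test). Agreement of both drug-tolerant libraries may therefore add little to 1 library. Par-a differed from Tol-a and Tol-b beyond counting error, with chi-square 9.77 and 8.23 per degree of freedom (p = 7.3e-79 and 9.8e-63, same test). Between Par-a and Par-b it was 239 per degree of freedom. Exons of 24 of the 54 genes overlap an exon of another gene, of 12 a protein-coding one, and whether counting used the strand is not given in the sources used here, so reads of such pairs cannot be told apart. Because Par-a stands apart, results are given against it and against Par-b and Par-c separately. Whether the cells, the RNA or the library set it apart was not tested.

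**Figure D1:**
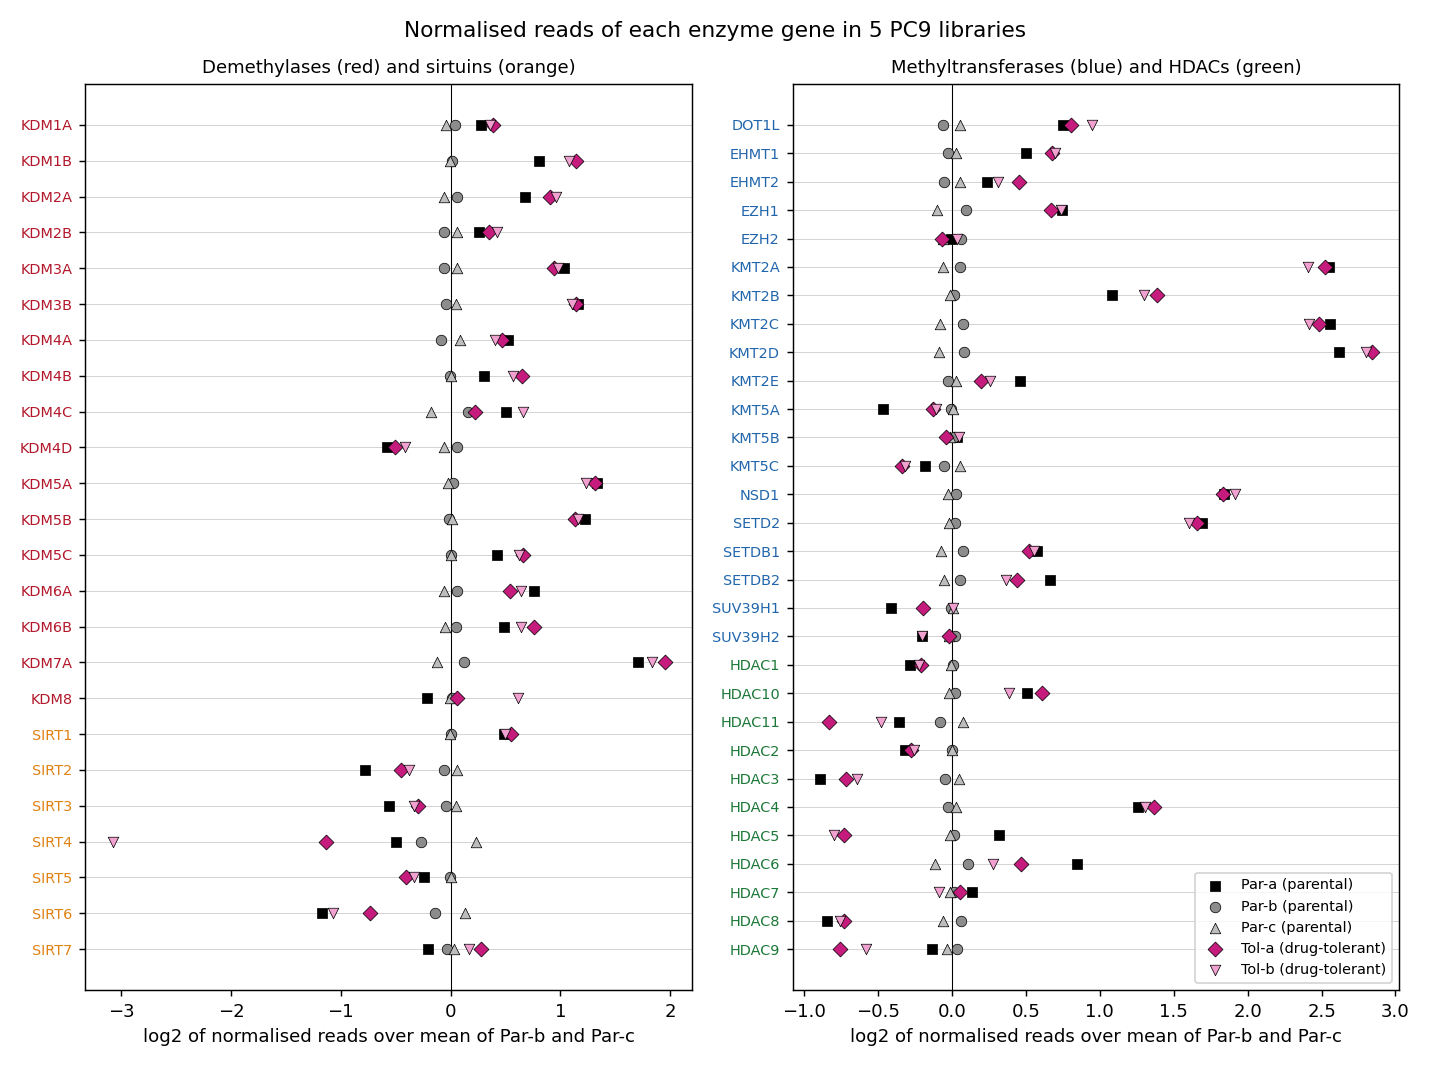
Normalised reads of each of the 54 genes in the 5 libraries, as the log2 of the level over the mean of Par-b and Par-c (horizontal axis), with 1 row per gene and 1 symbol per library. The 2 grey parental libraries sit near 0, while the black squares of Par-a lie with the pink drug-tolerant libraries for most genes, most of all for KMT2A, KMT2C and KMT2D. HDAC5 and HDAC9 are rows in which both drug-tolerant libraries lie to the left of every parental library.

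None of the 54 genes passed an adjusted p of 0.05 in the authors' deposited table, where 0.552% of the 15223 genes tested did (DESeq2). At an unadjusted p of 0.05 the authors' deposited table held 5 of the 54 (9.26%) against 10.8% of all genes tested, so the share was near the background. Of the 5, 3 were higher in drug-tolerant cells (5.56%, background 3.7%) and 2 lower (3.7%, background 7.1%). HDAC5 had the smallest adjusted p, 0.19, and the others of the 5 were HDAC9, KDM1B, KMT2B and KDM2A, with adjusted p from 0.41 to 0.46 in the authors' deposited table. The classes leaned in different directions. Log2 fold changes in the authors' deposited table were positive for 16 of 17 demethylases (median 0.44) and 15 of 19 methyltransferases (median 0.28), and negative for 8 of 11 HDAC genes (median -0.15) and 5 of 7 sirtuin genes (median -0.17), while the median of all genes tested was -0.02 with 48.4% positive. The lean of the classes depended on which parental libraries were compared. Against the mean of Par-b and Par-c, 16 of 17 demethylases, 14 of 19 methyltransferases, 3 of 11 HDAC genes and 2 of 7 sirtuin genes had higher drug-tolerant means. Against Par-a the counts were 10 of 17, 9 of 19, 5 of 11 and 5 of 7, with class medians of 0.11, -0.01, -0.00 and 0.24 on the log2 scale. With 3 libraries against 2, an exact permutation test of 1 gene cannot give a two-sided p below 0.1, so values per library are given without a test.

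**Figure D2:**
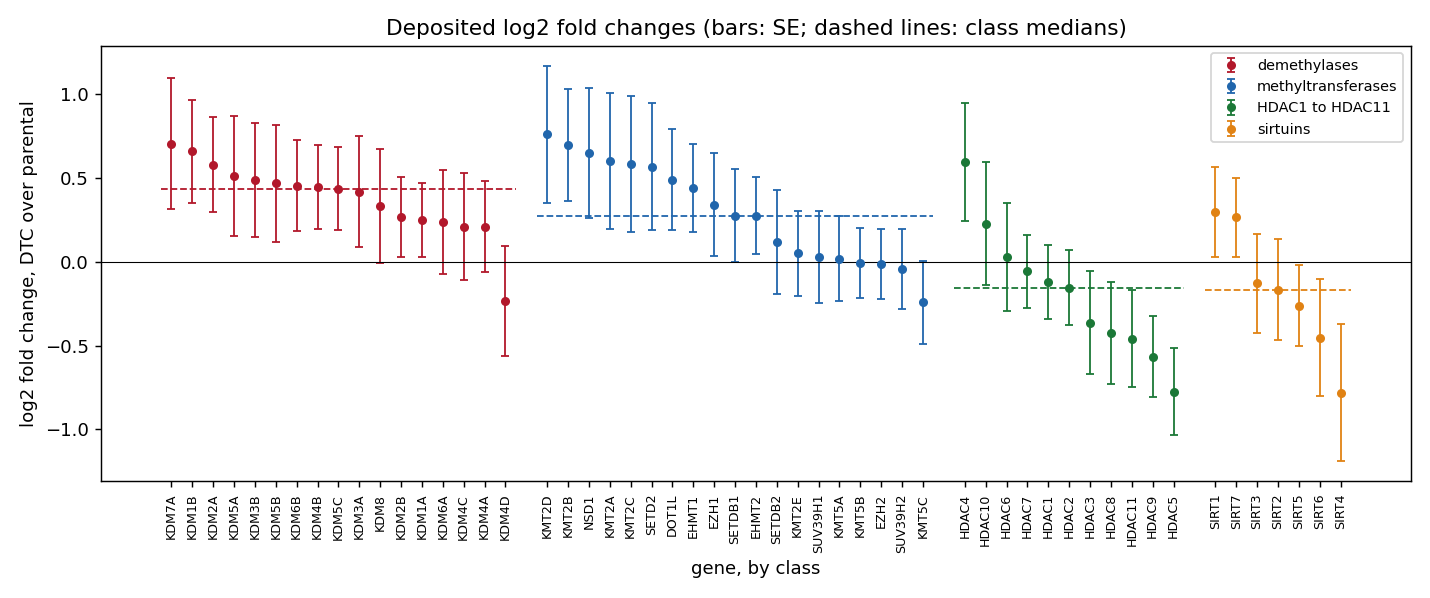
Log2 fold changes of the 54 genes in the authors' deposited table (vertical axis, drug-tolerant over parental), ordered within each class, with bars for 1 SE and dashed lines for the class medians. Demethylases lie above 0 except KDM4D, HDAC5 is the lowest HDAC gene at -0.78, and the SE of KMT2A, KMT2C and KMT2D are wide, at 0.41.

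Among the demethylases, KDM1A and KDM1B are flavin-dependent amine oxidases that remove H3K4 methyl groups. KDM1A (LSD1), a subunit of the CoREST corepressor, had the highest level of all 54 genes per length of transcript, at 3832 normalised reads per kb, and KDM1B (LSD2) had 202. KDM1B (ENSG00000165097, chromosome 6, 18155329 to 18223853, GRCh38) had 628, 362 and 357 normalised reads in Par-a, Par-b and Par-c and 795 and 758 in Tol-a and Tol-b. Both drug-tolerant libraries lay above every parental library, by 1.24-fold over Par-a and 2.16-fold over the mean of Par-b and Par-c. The log2 fold change of KDM1B in the authors' deposited table was 0.66 ± 0.31 (SE, adjusted p = 0.45). Levels of KDM1A spanned less, with 12158, 10286 and 9764 in the parental libraries and 13069 and 12836 in the drug-tolerant ones. Here too both drug-tolerant libraries were the highest, and the log2 fold change of KDM1A in the authors' deposited table was 0.25 ± 0.22 (SE, adjusted p = 0.60).

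The remaining demethylases share the JmjC domain, which uses iron and 2-oxoglutarate. KDM5A, KDM5B and KDM5C remove methyl groups from H3K4. KDM5A (ENSG00000073614, chromosome 12, 280129 to 389454, GRCh38) had 2027 in Par-a, 819.6 in Par-b and 792 in Par-c, and 2009 and 1898 after gefitinib. KDM5B had 2562, 1086 and 1106 normalised reads in Par-a, Par-b and Par-c and 2400.4 and 2440.4 in Tol-a and Tol-b. For both genes Par-a lay at the drug-tolerant level, and only Par-b and Par-c were low: drug-tolerant KDM5A was 2.42-fold the mean of Par-b and Par-c but 0.964-fold Par-a. The log2 fold changes in the authors' deposited table were 0.51 ± 0.36 (SE, adjusted p = 0.53) for KDM5A and 0.47 ± 0.35 (SE, adjusted p = 0.54) for KDM5B. KDM5C differed in that the groups did not overlap, with 1229, 915 and 916 in the parental libraries and 1443 and 1414 in the drug-tolerant ones. Its log2 fold change in the authors' deposited table was 0.44 ± 0.25 (SE, adjusted p = 0.49). The ratio of KDM5A to KDM5C reads per kb was 0.924 in Par-a, 0.502 and 0.485 in Par-b and Par-c, and 0.780 and 0.752 in Tol-a and Tol-b, so within a library the balance of the 2 genes was between the 2 kinds of parental library.

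KDM2A and KDM2B, which act on H3K36 and bind CpG-rich DNA, both had drug-tolerant levels above every parental library. KDM2A had 3373 in Par-a, 2204 in Par-b and 2022 in Par-c, and 3961 and 4107 after gefitinib, and a log2 fold change of 0.58 ± 0.28 (SE, adjusted p = 0.46) in the authors' deposited table. KDM2B differed less, at 434 to 349.9 in the parental libraries and 464 and 488 in the drug-tolerant ones. KDM3A and KDM3B, which act on H3K9, followed the pattern of KDM5A: drug-tolerant means were 1.94-fold and 2.18-fold the mean of Par-b and Par-c, and 0.95-fold and 0.977-fold Par-a. Of the KDM4 genes, which act on H3K9 and H3K36, only KDM4B had no overlap between groups, with 269, 218 and 219 normalised reads in Par-a, Par-b and Par-c and 342 and 323 in Tol-a and Tol-b. KDM4A and KDM4C overlapped, and KDM4D was the only demethylase with a negative log2 fold change, -0.23 ± 0.33 (SE, adjusted p = 0.73) in the authors' deposited table. KDM4D stood at 54.6 in Par-a, close to 57.3 and 60.9 in the drug-tolerant libraries, and at 84.5 and 78.1 in Par-b and Par-c.

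The H3K27 demethylases KDM6A (UTX) and KDM6B (JMJD3) differed in where Par-a lay. Their log2 fold changes in the authors' deposited table were both positive. These were 0.24 ± 0.31 (SE, adjusted p = 0.71) for KDM6A and 0.45 ± 0.27 (SE, adjusted p = 0.50) for KDM6B. KDM6B had 361, 266 and 248 in the parental libraries and 434 and 402 in the drug-tolerant ones, with both drug-tolerant libraries highest, while KDM6A was highest in Par-a (290.5) and lowest in Par-b and Par-c (178 and 164). KDM7A, which acts on H3K9 and H3K27, had the largest log2 fold change of the demethylases, 0.70 ± 0.39 (SE, adjusted p = 0.49) in the authors' deposited table. Its normalised reads were 144 in Par-a, 48.2 and 40.6 in Par-b and Par-c, and 171 and 158 in Tol-a and Tol-b, so most of the spread lay among the parental libraries. KDM8 was the only demethylase besides KDM4D that was lower in Par-a than in Par-b and Par-c, with 37.8 in Par-a, 44.2 in Par-b and 43.7 in Par-c, and 45.9 and 67.2 after gefitinib. Its lowest drug-tolerant value was 45.9 and its highest parental value 44.2, a gap of a few reads at this depth. In all, 9 of the 17 demethylases had both drug-tolerant libraries above every parental library and none had both below. Among genes with a mean level of 10 or more, reads were recovered for these enzymes and 14 partner genes, so the share of genes at like levels without overlap was not computed.

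The KMT2 enzymes are catalytic subunits of COMPASS complexes, and KMT2A, KMT2C and KMT2D had the largest fitted within-group spread of the 54 genes. KMT2A (MLL1), a regulator of HOX genes, had 5214, 925 and 854 normalised reads in Par-a, Par-b and Par-c and 5113 and 4729 in Tol-a and Tol-b. KMT2C had 2566, 458 and 412 in the parental libraries and 2432 and 2316 in the drug-tolerant ones. KMT2D (ENSG00000167548, chromosome 12, 49018975 to 49059774, GRCh38), which with KMT2C methylates H3K4 at enhancers, had 3654 in Par-a, 631 in Par-b and 562 in Par-c, and 4269 and 4164 after gefitinib. Par-b and Par-c thus stood at about the same low level for these 3 genes, and Par-a and the drug-tolerant libraries at another: Par-a was 5.86-fold, 5.9-fold and 6.13-fold the mean of Par-b and Par-c. Drug-tolerant means were 0.944-fold, 0.925-fold and 1.15-fold Par-a, and KMT2D was the 1 of the 3 whose drug-tolerant libraries both exceeded Par-a. The authors' deposited table gave log2 fold changes of 0.60 ± 0.41 (SE, adjusted p = 0.52) for KMT2A, 0.58 ± 0.41 (SE, adjusted p = 0.53) for KMT2C and 0.76 ± 0.41 (SE, adjusted p = 0.47) for KMT2D. These fold changes are moderated towards 0, and the log2 ratio of the group means of reads was 1.08 for KMT2A, 1.05 for KMT2C and 1.38 for KMT2D. The fitted within-group spread behind these tests, recovered with the reads, was 56.0% of the level for KMT2A, 56.2% for KMT2C and 57.0% for KMT2D. Its median over the 54 genes was 25.9%. The fit moderates this spread towards the trend over genes. Measured in the parental libraries, the standard deviation of KMT2A was 2497 around a mean of 2331. KMT2B had no overlap between groups, with 874, 417 and 408 normalised reads in Par-a, Par-b and Par-c and 1079 and 1013 in Tol-a and Tol-b, and a log2 fold change of 0.70 ± 0.34 (SE, adjusted p = 0.45) in the authors' deposited table. KMT2E, a family member not known as an active methyltransferase, was higher in Par-a (1204) than in the drug-tolerant libraries (1003 and 1050) and had a log2 fold change of 0.05 ± 0.25 (SE, adjusted p = 0.93) in the authors' deposited table.

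Enzymes of H3K9 methylation had log2 fold changes from -0.04 to 0.44 in the authors' deposited table. EHMT1 (GLP) and EHMT2 (G9a), which work as a pair, both had drug-tolerant libraries above every parental library. EHMT1 had 876, 606 and 629.8 in the parental libraries and 988 and 1003 in the drug-tolerant ones, and EHMT2 had 859.6 in Par-a, 702 in Par-b and 757 in Par-c, and 997 and 906 after gefitinib. The log2 fold changes in the authors' deposited table were 0.44 ± 0.26 (SE, adjusted p = 0.50) for EHMT1 and 0.28 ± 0.23 (SE, adjusted p = 0.57) for EHMT2. SETDB1, which silences transposable elements with its partner TRIM28, had 529.7, 373 and 337 normalised reads in Par-a, Par-b and Par-c and 511 and 521 in Tol-a and Tol-b, with Par-a at the drug-tolerant level. SETDB2 overlapped between groups, and SUV39H1 and SUV39H2, the enzymes of pericentromeric heterochromatin, had log2 fold changes of 0.03 ± 0.27 (SE, adjusted p = 0.96) and -0.04 ± 0.24 (SE, adjusted p = 0.94) in the authors' deposited table.

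EZH2, the main H3K27 methyltransferase of Polycomb repressive complex 2 in dividing cells, had 1203, 1261 and 1158 in the parental libraries and 1155 and 1236 in the drug-tolerant ones. The fitted within-group spread was 17.0% of its level. Measured standard deviations were 51.8 around a mean of 1207 in parental libraries and 57.1 around 1196 in drug-tolerant ones. The log2 fold change of EZH2 was -0.01 with a 95% interval of -0.43 to 0.40 in the authors' deposited table, so a lower or a higher level within that range remains possible. The deposited fold change is moderated towards 0. EZH1, its less abundant relative, had 359 in Par-a, 230.0 in Par-b and 199.9 in Par-c, and 342 and 358 after gefitinib. Per kb of transcript the ratio of EZH1 to EZH2 was 0.171 in Par-a, 0.104 and 0.0986 in Par-b and Par-c, and 0.169 and 0.165 in Tol-a and Tol-b. In this balance too, Par-a lay beside the drug-tolerant libraries. The H3K36 enzymes SETD2 and NSD1 resembled KMT2A. SETD2, which travels with elongating RNA polymerase, had 2481, 778 and 757 normalised reads in Par-a, Par-b and Par-c and 2424 and 2335 in Tol-a and Tol-b, and NSD1 had 2252, 643 and 617 in the parental libraries and 2247 and 2369 in the drug-tolerant ones. The log2 fold changes in the authors' deposited table were 0.57 ± 0.38 (SE, adjusted p = 0.52) for SETD2 and 0.65 ± 0.39 (SE, adjusted p = 0.51) for NSD1. DOT1L, the H3K79 enzyme, had both drug-tolerant libraries highest, with 594 in Par-a, 339 in Par-b and 367 in Par-c, and 618 and 682 after gefitinib, and a log2 fold change of 0.49 ± 0.30 (SE, adjusted p = 0.51) in the authors' deposited table.

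Of the H4K20 enzymes, KMT5B was nearly level at 952 to 1013 in all 5 libraries, and KMT5A was lowest in Par-a (645.5) and 815 to 895 in the others. KMT5C was the 1 methyltransferase with both drug-tolerant libraries below every parental library, with 236, 258 and 278 normalised reads in Par-a, Par-b and Par-c and 212 and 216 in Tol-a and Tol-b. Its log2 fold change in the authors' deposited table was -0.24 ± 0.25 (SE, adjusted p = 0.64). Both drug-tolerant libraries exceeded every parental library for 5 of the 19 methyltransferases: KMT2B, KMT2D, EHMT1, EHMT2 and DOT1L. For this count too, the share over all genes was not computed.

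Promoter sequence was read from RefSeq (GRCh38.p14) for 51 of the 54 genes, with no entry for HDAC5, SIRT7 and DOT1L, and 35 of the 51 had 1 start site listed. The stretches below come from KDM1B and KMT2B, the genes with 1 listed start that had the smallest p among those higher in both drug-tolerant libraries, and from HDAC11 and KMT5C, chosen in the same way among those lower in both. Each is the part of the 250 bases before the RefSeq start that no annotated exon covers, at most 120 bases, on the + strand, and capitals mark matches to the GC box (GGGCGG) or the CCAAT box (CCAAT) on either strand, where neighbouring matches can overlap.
KDM1B chr6:18155209-18155328: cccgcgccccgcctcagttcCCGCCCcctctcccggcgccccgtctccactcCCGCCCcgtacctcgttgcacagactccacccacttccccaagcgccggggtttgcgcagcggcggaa
KMT2B chr19:35717883-35718002: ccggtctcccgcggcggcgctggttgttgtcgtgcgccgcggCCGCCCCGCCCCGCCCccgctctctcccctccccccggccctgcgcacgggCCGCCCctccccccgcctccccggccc
HDAC11 chr3:13480117-13480164: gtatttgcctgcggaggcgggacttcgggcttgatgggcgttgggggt
KMT5C chr19:55339733-55339852: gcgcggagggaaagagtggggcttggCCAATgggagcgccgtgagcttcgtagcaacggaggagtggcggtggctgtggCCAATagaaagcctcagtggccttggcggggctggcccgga
The KDM1B stretch had 2 GC box matches, the KMT2B stretch 4, the shorter HDAC11 stretch none of either motif, and the KMT5C stretch 2 CCAAT matches and no GC box. The HDAC11 stretch has 48 bases, ends 141 bases before the RefSeq start and lies inside the gene as GENCODE annotates it. It is thus not comparable with the other stretches. In the 250 bases before the start, 25 of the 35 genes with 1 listed start (71.4%) held a GC box, against 42.6% of all 35116 promoters in the table. A CCAAT box was found in 10 of the 35 (28.6%) against 32%, and a TATA box (TATAAA) in 0 of the 35 against 10.7%. The E-box CACGTG was found before 6 of the 35, EHMT2, KDM4B, KDM4C, KDM6A, KMT2D and SIRT1 (17.1%), against 6.34%. CG dinucleotides numbered a median of 24 in these 35 windows and 11 in all promoters. The background was every promoter listed, neither limited to genes with 1 start nor matched for CG content. The shares are therefore not from like sets. A match is a description of the letters and not evidence of a bound factor.

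Among the histone deacetylases, HDAC5 had the smallest p of the 54 genes. HDAC5 (ENSG00000108840, chromosome 17, 44076746 to 44123702, GRCh38) is a class IIa enzyme, a group that shuttles between nucleus and cytoplasm and represses MEF2 targets. It had 335, 271 and 266 in the parental libraries and 162 and 155 in the drug-tolerant ones. Both drug-tolerant libraries were low, and Par-a, which for most genes lay nearer to them than to Par-b and Par-c, was here the highest of the 5. Drug-tolerant HDAC5 was lower than Par-a by 2.11-fold and lower than the mean of Par-b and Par-c by 1.7-fold. Its log2 fold change in the authors' deposited table was -0.78 ± 0.26 (SE, adjusted p = 0.19). When the deposited scores were freed of their trend on transcript length and GC content across 12453 protein-coding genes, HDAC5 had an adjusted p of 0.040 by Benjamini-Hochberg and was the only one of the 54 below 0.05. The adjusted p of HDAC5 was 0.97 with the scores centred and scaled to their own spread, and 0.34 with no filter on low levels. Bulk RNA cannot tell fewer cells expressing HDAC5 from less HDAC5 RNA in each cell.

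The other class IIa genes differed from HDAC5. HDAC9 (ENSG00000048052, chromosome 7, 18086949 to 19002416, GRCh38) had 327 in Par-a, 367 in Par-b and 351 in Par-c, and 212 and 239.6 after gefitinib. It was likewise below every parental library in both drug-tolerant ones, by 1.45-fold against Par-a and 1.59-fold against Par-b and Par-c, with a log2 fold change of -0.57 ± 0.24 (SE, adjusted p = 0.41) in the authors' deposited table. HDAC4 went the other way, with 808, 331 and 342 normalised reads in Par-a, Par-b and Par-c and 870.4 and 834 in Tol-a and Tol-b, and a log2 fold change of 0.59 ± 0.35 (SE, adjusted p = 0.50) in the authors' deposited table. Its drug-tolerant mean was 1.06-fold Par-a and 2.53-fold the mean of Par-b and Par-c. HDAC7, the most abundant of class IIa per length of transcript, had 979.6, 902 and 885 in the parental libraries and 928 and 839 in the drug-tolerant ones. Within a library, HDAC5 reads per kb were 0.263, 0.231 and 0.232 of those of HDAC7 in Par-a, Par-b and Par-c, and 0.135 and 0.142 in Tol-a and Tol-b. This ratio did not overlap between the groups, and all 3 parental libraries lay together in it.

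Of the class I enzymes, HDAC1, HDAC2 and HDAC3 are catalytic subunits of nuclear corepressors (SIN3, NuRD, CoREST and NCoR), and HDAC8 acts on cohesin. HDAC1 and HDAC2 had the second and the third largest levels of the 54 genes per kb (1744 and 541), after KDM1A. HDAC1 had 3352 in Par-a, 4096 in Par-b and 4059.7 in Par-c, and 3523 and 3485 after gefitinib, and HDAC2 had 4801, 5976 and 5986 normalised reads in Par-a, Par-b and Par-c and 4945 and 5004 in Tol-a and Tol-b. For both genes Par-a was the lowest library, Par-b and Par-c were the highest, and the ratio of HDAC1 to HDAC2 per kb was 3.15 to 3.31 in all 5 libraries. HDAC3, the NCoR enzyme, had 711, 1275 and 1364 in the parental libraries and 802 and 846 in the drug-tolerant ones, and HDAC8 had 424 in Par-a, 793 in Par-b and 729.7 in Par-c, and 459 and 451 after gefitinib. These 2 genes were thus lower than Par-b and Par-c but above Par-a in the drug-tolerant cells, and the log2 fold changes in the authors' deposited table were -0.36 ± 0.31 (SE, adjusted p = 0.58) and -0.43 ± 0.31 (SE, adjusted p = 0.53).

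HDAC6, the tubulin deacetylase of class IIb, was highest in Par-a and had 393, 236 and 202 normalised reads in Par-a, Par-b and Par-c and 302 and 265 in Tol-a and Tol-b. HDAC10, a polyamine deacetylase, was low everywhere, at 23.9 to 37.0. HDAC11, the class IV enzyme, had 142, 172 and 192 in the parental libraries and 102 and 131 in the drug-tolerant ones, with both drug-tolerant libraries below every parental one and a log2 fold change of -0.46 ± 0.29 (SE, adjusted p = 0.51) in the authors' deposited table. HDAC5, HDAC9 and HDAC11 were the 3 of the 11 HDAC genes below every parental library in both drug-tolerant ones, and HDAC4 was the 1 above. The share of all genes with such positions was not computed.

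**Figure D3:**
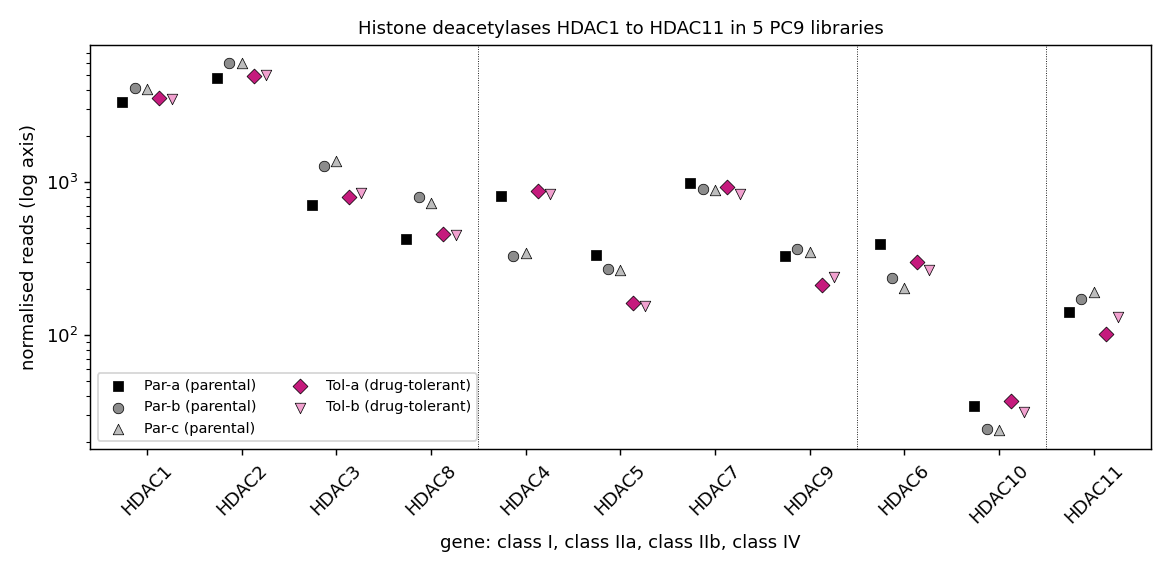
Normalised reads (vertical, log axis) of HDAC1 to HDAC11 in the 5 libraries, 1 symbol per library, with dotted lines between class I, class IIa, class IIb and class IV. HDAC5 lies at 162 and 155 in the drug-tolerant libraries and at 266 to 335 in the parental ones, while HDAC3 and HDAC8 place Par-a with the drug-tolerant libraries.

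Sirtuins are NAD-dependent deacylases, with SIRT1, SIRT6 and SIRT7 in the nucleus and SIRT3, SIRT4 and SIRT5 in mitochondria. SIRT7 had 311 in Par-a, 352 in Par-b and 366 in Par-c, and 436 and 403 after gefitinib, and SIRT1 had 394, 282 and 280.0 normalised reads in Par-a, Par-b and Par-c and 410.1 and 397 in Tol-a and Tol-b, and these were the 2 sirtuins above every parental library in both drug-tolerant ones. The log2 fold changes in the authors' deposited table were 0.27 ± 0.24 (SE, adjusted p = 0.60) for SIRT7 and 0.30 ± 0.27 (SE, adjusted p = 0.60) for SIRT1. SIRT5 was below every parental library in both, at 286 and 300.5 against 319 to 380. For sirtuins too, the share of all genes with such positions was not computed. SIRT6 had 156, 317 and 385 in the parental libraries and 211 and 167 in the drug-tolerant ones, so that the drug-tolerant libraries lay above Par-a and below Par-b and Par-c. SIRT2, a mainly cytoplasmic enzyme, and SIRT3 likewise had both drug-tolerant libraries between Par-a and the other parental libraries. SIRT4 was the lowest of the 54 genes, with 18, 18 and 24 reads in Par-a, Par-b and Par-c and 11 and 2 reads in Tol-a and Tol-b before scaling. Its log2 fold change of -0.78 ± 0.41 (SE, adjusted p = 0.47) in the authors' deposited table rests on these few reads, and the 2 drug-tolerant libraries themselves differed widely.

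The difference between Par-a and Par-b and Par-c followed transcript length, and not only in these 54 genes. Among genes with a mean level under 10, reads of genes over 4 kb per read of genes under 2 kb were compared. This ratio was 0.806 in Par-a, 0.511 in Par-b, 0.498 in Par-c, 0.819 in Tol-a and 0.702 in Tol-b. Length here is that of the principal protein-coding transcript in GENCODE release 29, from 1217 bases for SIRT4 to 19419 for KMT2D. The median log2 ratio of Par-a to the mean of Par-b and Par-c was 1.69 for the 11 genes over 8 kb, 0.51 for the 22 genes of 4 to 8 kb and -0.25 for the 21 genes under 4 kb. Spearman's rho between this ratio and length was 0.77 across the 54 genes, which share the same libraries and are not independent replicates. For the ratio of drug-tolerant cells to Par-a, which shares Par-a with the ratio above, rho was -0.19, with medians of 0.04, -0.04 and 0.11 in the same 3 length ranges. HDAC2 and HDAC8 stood apart from the relation by annotated length. Their principal transcripts are 9874 and 5689 bases long, and both genes were lower in Par-a than in Par-b and Par-c. Which transcripts of these genes the cells made was not measured. Among all protein-coding genes tested, the median log2 fold change in the authors' deposited table was 0.39 over 8 kb, 0.20 from 4 to 8 kb and -0.17 under 4 kb. Demethylases had a median length of 5438 bases, methyltransferases 5837, HDAC genes 4095 and sirtuins 2070, against 3171 for the protein-coding genes tested. After the trend was removed the class medians were 0.17, 0.16, -0.17 and -0.03. The part of the libraries and of gefitinib in these values cannot be told apart from the 5 libraries.

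**Figure D4:**
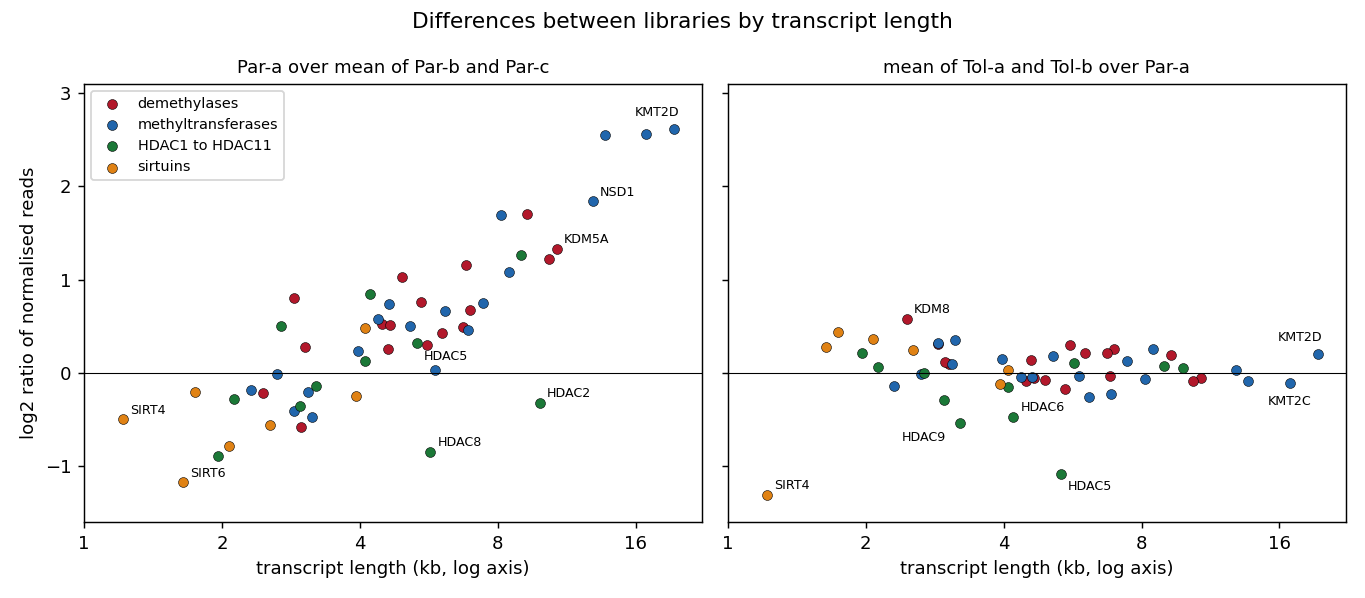
Log2 ratios of normalised reads (vertical axis) by transcript length (horizontal, log axis) for the 54 genes, coloured by class: Par-a over the mean of Par-b and Par-c on the left, and the drug-tolerant mean over Par-a on the right. On the left the ratio runs from -1.17 for SIRT6 to 2.61 for KMT2D; on the right 43 of the 54 genes lie within 0.3 of 0, and HDAC5 and SIRT4 lie lowest.

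Drug-tolerant levels differed in the same direction from Par-a and from the mean of Par-b and Par-c for 26 of the 54 genes, 18 higher and 8 lower. By more than 0.3 on the log2 scale (1.23-fold) against both, KDM1B, KDM4B and KDM8 were higher, and HDAC5, HDAC9 and SIRT4 were lower. Those 6 were chosen by their values and carry no test. KDM8 rests largely on Tol-b (67.2 normalised reads, against 45.9 in Tol-a). Without Tol-b its log2 ratio to the mean of all parental libraries was 0.13. SIRT4 had only 11 and 2 reads in Tol-a and Tol-b before scaling. In counts without overlap, both drug-tolerant libraries exceeded every parental library for 17 genes and were below every parental library for 6, and the remaining 31 overlapped. The share of all genes without overlap was not computed, so these counts have no background beside them. Without Par-a these counts became 34 and 16, and with Par-a as the only parental library 27 and 21. With size factors 36 of the 54 genes had a higher drug-tolerant mean. Scaled instead to the sum of all resolved reads, 21 did, with 11 genes above and 11 below every parental library, but 65.7% to 69% of that sum are reads of the 54 genes themselves, so this scaling centres the set largely on itself by construction.

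**Figure D5:**
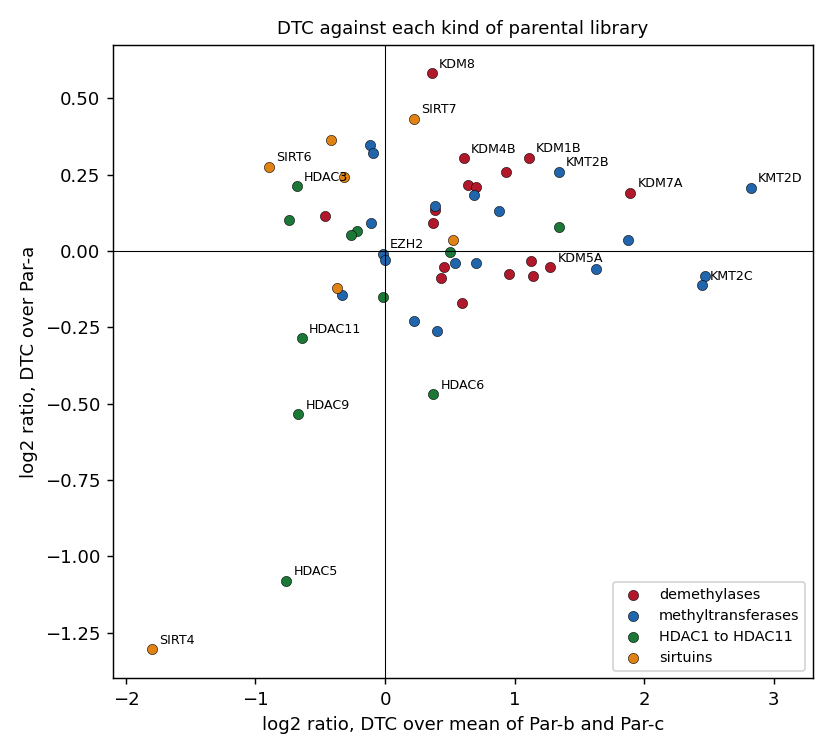
Log2 ratio of the drug-tolerant mean to the mean of Par-b and Par-c (horizontal) and to Par-a (vertical) for the 54 genes, coloured by class. Both ratios use the same drug-tolerant libraries. The vertical axis covers a smaller range than the horizontal one, so equal differences look larger on it. KMT2C and KMT2D lie far to the right and near 0 on the vertical axis, and HDAC5, HDAC9 and SIRT4 are low on both axes.

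Other genes of the same pathways gave few calls. Of 87 partner genes in 7 lists, 85 were tested and 1, TBL1X, passed an adjusted p of 0.05 in the authors' deposited table, higher in drug-tolerant cells (0.263% of all genes tested were called higher). TBL1X encodes a subunit of the NCoR corepressor that holds HDAC3. Its normalised reads were 669.9 in Par-a, 567 in Par-b and 513 in Par-c, and 1184 and 1244 after gefitinib, with no overlap between groups, and its log2 fold change in the authors' deposited table was 0.96 ± 0.24 (SE, adjusted p = 0.019). With the trend on length and GC content removed, TBL1X had an adjusted p of 0.11. The other lists had no call in either direction in the authors' deposited table. The lists were drawn up with earlier results of these data known. Log2 fold changes there were positive for 7 of 13 COMPASS partners (median 0.11), 4 of 9 partners of Polycomb repressive complex 2 (median -0.08), 14 of 25 members of the HDAC corepressors (median 0.05) and 9 of 11 H3K9 partners and readers (median 0.28). They were also positive for 9 of 12 acetyltransferases (median 0.48), 6 of 12 other methyltransferases (median 0.11) and 2 of 3 BET readers (median 0.02) in the authors' deposited table. With the trend removed the acetyltransferase median was 0.23. KAT2A and KAT2B, acetyltransferases that act against the HDAC enzymes, had log2 fold changes of 0.62 ± 0.28 (SE, adjusted p = 0.44) and 0.74 ± 0.34 (SE, adjusted p = 0.45) in the authors' deposited table. Drug-tolerant levels of both exceeded every parental library, with 626, 412 and 390.4 normalised reads in Par-a, Par-b and Par-c and 804 and 768 in Tol-a and Tol-b for KAT2A and 85.6, 47.2 and 47.9 in the parental libraries and 112 and 120.4 in the drug-tolerant ones for KAT2B. WIZ, a zinc-finger partner of EHMT1 and EHMT2, had 837 in Par-a, 737 in Par-b and 742 in Par-c, and 1193 and 1207 after gefitinib, and a log2 fold change of 0.59 ± 0.22 (SE, adjusted p = 0.29) in the authors' deposited table.

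Markers of the cell type were checked in the same table. Mean levels in the authors' deposited table were at least 100 for 6 of 8 epithelial and lung markers (KRT8, KRT7, KRT19, KRT18, EPCAM and CDH1), while the lung markers NKX2-1 and NAPSA stood at 2.83 and 2.33. Of the fibroblast, haematopoietic and endothelial markers, COL1A1 (162), CDH5 (253) and PECAM1 (1616) had a mean of at least 100 in the authors' deposited table, and the others with an entry were at most 25.9. No marker of any list passed an adjusted p of 0.05.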

How the data were processed

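TriZol RNA of 3 parental and 2 DTC samples went into a stranded mRNA library kit, per the labels' protocols. FastQC, STAR, DESeq2 and the build hg38 are named per the submitters' processing notes. How reads were counted, on which annotation and with which tool versions is not given in the sources used here. Mean level is the authors' deposited signal, reads over size factor averaged over the libraries. Deposited fold changes and SE are on the log2 scale, the Wald statistic was deposited as a score, and the deposited p-values have a Benjamini-Hochberg adjustment. The test planned for such a table, the authors' adjusted p under 0.05, was used.

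Whole reads per library were recovered by finding the 5 counts whose mean, moderated fold change and SE equal the deposited figures, within a relative tolerance of 1e-06. The negative binomial model with a prior on the fold change was refitted for this, with its trend calibrated on 310 genes. All 54 genes and 14 of 14 partner genes had exactly 1 match, with a largest misfit of 2.0e-07, and 16 of 16 were recovered when the procedure was tested on simulated data. The direction of the fold change is fixed by low genes, in which 3 libraries lower the deposited fold change and the other two raise it. Spread is the square root of the fitted dispersion, as a percent of the level. The fit moderates the dispersion of each gene towards the trend over genes, so spread is not the standard deviation measured in the libraries. The trend with length and GC content was a lowess curve (fraction 0.2, statsmodels 0.14.6) over tested protein-coding genes. Symbols, positions and lengths come from the table and GENCODE release 29. Any gene of the set could be named; of each partner list, the 2 with the smallest adjusted p and every called gene could be. The genes and lists were chosen with earlier results of these data known. Alternatives were other thresholds, filters, scalings, the trend, and each library left out.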

Additional observations from a re-analysis of the deposited data

How the results depend on the processing

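The count of 0 called among the 54 genes held at thresholds of 0.01 and 0.1, with no filter on low levels, with a mean level of at least 50, and with centred and scaled Wald scores; it became 1 (HDAC5) with the length and GC trend removed, with the principal or, chosen after seeing the data, the longest transcript. All genes called higher (40) and lower (44) became 25 and 14 at 0.01, 64 and 89 at 0.1, and 1 and 0 with scaled scores; lower calls became 26 with no filter, 26 with the trend removed and 28 with the longest transcript. With the deposited fold changes, no class median moved by more than the median SE of its members, which is an SE of single genes. The demethylase median was 0.44 and fell to 0.17 with the trend removed. From reads against Par-a alone, the class medians were 0.11, -0.01, -0.00 and 0.24 for demethylases, methyltransferases, HDAC genes and sirtuins. Signs turned with the trend removed for EZH2 (0.0773), KMT2E (-0.231), SETDB2 (-0.108), HDAC1 (0.0191) and HDAC6 (-0.0743), with the longest transcript for EZH2 (0.106), KMT2E (-0.218), SETDB2 (-0.0869), SUV39H2 (0.0292), HDAC1 (0.0608), HDAC6 (-0.0633) and SIRT2 (0.0321), and in the scaled score for EZH2 (0.0006) and KMT5B (0.0176). The cause was not tested.

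From reads, 36 genes were higher in drug-tolerant cells with a median log2 ratio of 0.29. With each library left out in turn these were 34 to 37 and 0.20 to 0.40, genes without overlap numbered 17 to 34 above and 6 to 16 below, and the highest counts came without Par-a. With Par-a alone they were 27 above and 21 below (chosen after seeing the data). Scaled to the sum of the resolved reads, of which 65.7% to 69% are those of the 54 genes themselves, 21 genes were higher, the median was -0.0789, and 11 lay above and 11 below. The sign of the ratio held for 46 of 54 genes whichever library was left out. Leaving out Par-b or Par-c keeps the other, so this count cannot show how far signs depend on that pair. Against Par-a and against the mean of Par-b and Par-c, the sign was the same for 26 genes and opposite for 28. No paired analysis was possible because the deposited table has no column per sample and the recovered libraries carry no replicate number. For the same reason edgeR, which needs reads of all genes, and calls with a library left out were not run. Depth limits SIRT4, HDAC10 and KDM8 most.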
